A study of Mus musculus with 9 samples.

Results

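The complement genes C3, Cfb, C2, C4b, C1ra, C1s, Serping1 and Cd55 were examined for RelA and RelB binding, 8 of the 22380 protein-coding genes annotated in mm9. Their binding sites were all peaks whose centre lay within 50 kb of a gene start, and these gave 33 distinct peaks at 16 distinct sites, out of 25055 peaks in 8 lists. All 33 came from the libraries made at 6 h of TNF and none from those made at 0 h. Of the 8 genes, 7 had at least 1 peak, and C4b had none.

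The libraries were made from Nfkb2-/- MEFs, immortalised embryonic fibroblasts that lack p100, the precursor that holds RelB back in the cytoplasm. The cells were left untreated (0 h) or kept in 10 ng/ml TNF for 6 h (the chronic regime, TNFc), and chromatin was precipitated with an anti-RelA or an anti-RelB antibody, with 2 libraries for each antibody and time. All 8 libraries share the knockout, and no wild-type library was analysed here, so binding in cells with p100 was not measured. The authors called peaks library by library, with pooled Nfkb2-/- input as the control. The peak lists hold no expression values, so neither the fibroblast label nor the loss of Nfkb2 could be checked, and what binding did to expression was not measured.

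Complement is a cascade of plasma proteins that marks microbes and damaged cells for removal. The classical route starts with the proteases C1r and C1s, of which C1s cleaves C4 and C2. The alternative route uses factor B, and both routes converge on C3, the protein whose fragments coat the target. C1 inhibitor (Serping1) blocks the starting proteases and CD55, also called decay-accelerating factor, takes apart the enzymes that cleave C3, so that host cells are spared. Fibroblasts make several of these proteins, and inflammatory cytokines that act through NF-κB, the family of factors to which RelA and RelB belong, are known to raise C3.

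The strongest and the best covered C3 site lay 3.6 kb upstream of the gene. A stretch of it is shown that was cut around a pair of separate matches to the NF-κB consensus. Capitals mark the matched letters, at chr17:57371164-57371173 and chr17:57371265-57371274 of mm9, on the plus strand. Both also match when read on the minus strand. The called peaks of RelA replicate 1 and RelB replicate 2 ended at 57371070 and 57371153, before the first match.

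C3 upstream site, chr17:57371124-57371314, plus strand: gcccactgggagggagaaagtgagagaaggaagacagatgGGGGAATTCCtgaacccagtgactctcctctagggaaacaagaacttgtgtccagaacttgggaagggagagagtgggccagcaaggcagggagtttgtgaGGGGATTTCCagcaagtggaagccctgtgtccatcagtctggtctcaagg

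Matches at the other sites that the results turn on are given with 15 bases on each side, in capitals again, for comparison with those of C3. The C1s upstream site carries the same 10 letters as the first C3 match.

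C3 intron site, match at chr17:57364606-57364615, plus strand: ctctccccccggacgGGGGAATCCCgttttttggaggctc
C3 start site, match at chr17:57367583-57367592, minus strand: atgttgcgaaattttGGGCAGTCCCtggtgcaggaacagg
C1ra upstream site, match at chr6:124451601-124451610, plus strand: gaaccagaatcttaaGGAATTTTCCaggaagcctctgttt
C1s upstream site, match at chr6:124634151-124634160, plus strand: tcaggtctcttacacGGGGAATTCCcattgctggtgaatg
Cd55 upstream site, match at chr1:132408423-132408432, plus strand: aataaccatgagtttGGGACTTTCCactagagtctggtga

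The comparison of 6 h with 0 h asked whether RelA and RelB were found at complement genes before and after TNF. At 6 h there were 9 complement peaks in RelA replicate 1 and 11 in RelA replicate 2, and 5 in RelB replicate 1 and 8 in RelB replicate 2 (mean 8.25 ± 2.5 SD, n = 4). Each of the 4 libraries at 0 h held 0. The groups did not overlap, a difference of 3.17 in log2(number of peaks + 1). The lists as a whole changed the same way, from between 14 and 194 peaks at 0 h to between 5192 and 7052 at 6 h. At the highest share that complement peaks took of a 6 h list, the longest 0 h list would hold 0.375 of a peak, so 0 in each 0 h library shows nothing particular to these genes. Among all protein-coding genes, 43.5% had a peak within 50 kb at 6 h and 1.16% at 0 h, against which the 7 and 0 of 8 complement genes are to be read. Complement peaks made up between 0.0963% and 0.193% of the list in each 6 h library. The SD of 2.5 is over libraries of both antibodies. Nothing in the labels says that replicates came from separate cultures. The spread between these libraries, on which the limma p-values below rest, may therefore be technical.

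**Figure D1:**
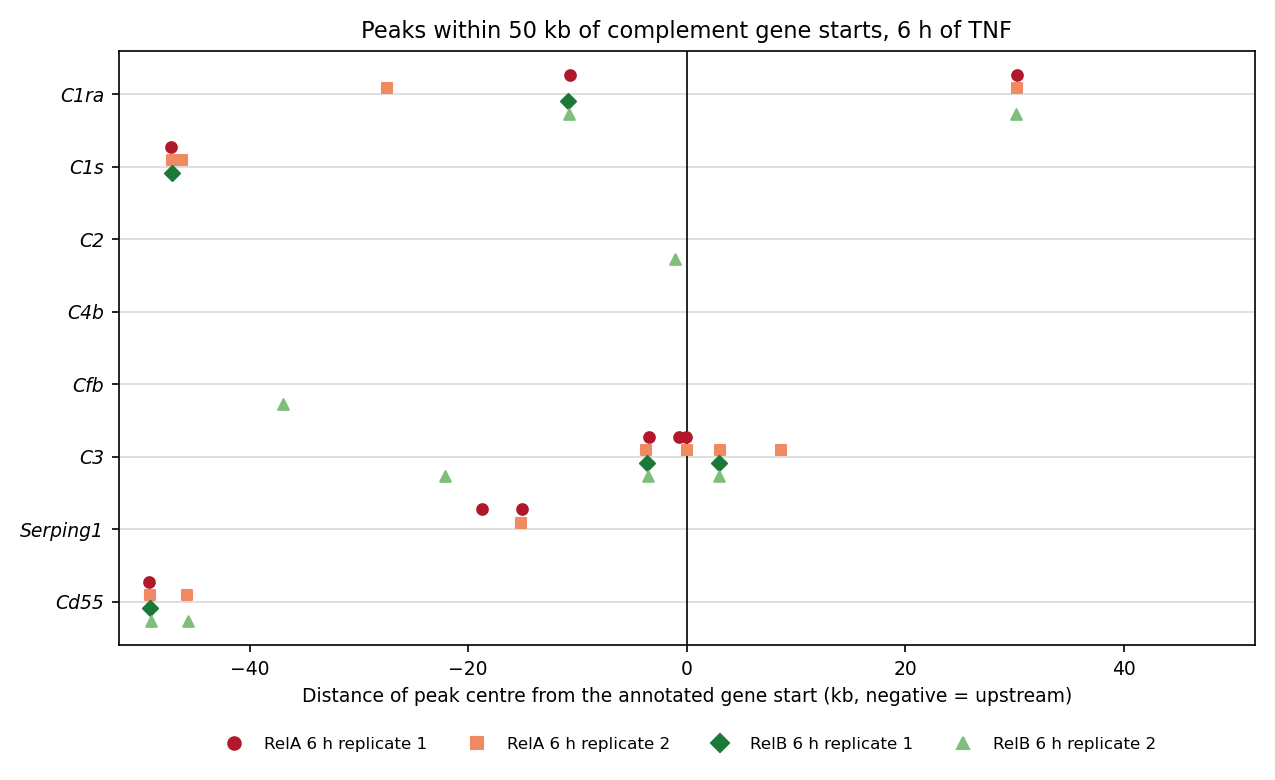
Each symbol is a peak called at 6 h of TNF, placed by the distance of its centre from the annotated start of the gene (kb, negative upstream), with a row for each gene and a symbol for each library. C3 has 5 of its 6 sites within 10 kb of its start, the peaks of C1s and Cd55 lie over 45 kb upstream, and the row of C4b is empty.

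C1ra, which encodes a C1r protease of the classical route, had 7 peaks at 3 sites. The gene spans 124462423 to 124473458 of chromosome 6, on the plus strand. A site 10.7 kb upstream, chr6:124451547-124451838, lay in an intron of the neighbouring gene C1rl. It was called at log2 folds over input of 2.57 in RelA replicate 1, 3.87 in RelB replicate 1 and 3.73 in RelB replicate 2, with 14, 27 and 32 ChIP reads. RelA replicate 2 had no peak there, so the higher values were those of RelB, with no test possible on the missing library. The peaks of the RelB libraries, at 124451547 to 124451591 and at 124451631 to 124451671, did not overlap each other and were joined by the longer RelA peak.

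A site 30.2 kb downstream of the C1ra start, chr6:124492415-124492875, was called at 3.31 in RelA replicate 1, 4.12 in RelA replicate 2 and 3.21 in RelB replicate 2, with 18, 31 and 18 reads. The value of 4.12 was the highest of the 33 peaks of the 8 genes, and its rank was 153 of 5688 in that library. This site lay between 268 and 324 bp upstream of 4 transcript starts of C1s, the classical protease that C1r activates, because the annotated C1s gene holds both short transcripts and long ones. Its distance from the start of the whole C1s gene, at 124586998, is over 50 kb, so the rule assigned it to C1ra and not to C1s. The site also lies in introns of C1rb and of the long C1s transcripts. C1rb is a close copy of C1ra, and reads that align equally well to both are not in the lists, which kept unique alignments. A weak peak 27.4 kb upstream of C1ra was called in RelA replicate 2 with a log2 fold of 1.78, 12 reads and an FDR of 0.0766.

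C1s, which spans 124480363 to 124586998 of chromosome 6 on the minus strand, had 4 peaks at 2 sites, both in an intron of Lpcat3, whose start lies nearer. The site 47.1 kb upstream, chr6:124634072-124634218, was called at 2.39 and 2.31 in the RelA libraries and 2.36 in RelB replicate 1, with 19, 21 and 20 reads. These 3 values were the closest to each other among the 4 complement sites called in 3 libraries, and RelB replicate 2 had no peak. The other site, chr6:124633096-124633386, was called in RelA replicate 2 alone among the lists, at 2.49 with 15 reads.

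C2, the protease subunit shared by the classical and lectin routes, and Cfb, its counterpart in the alternative route, are neighbours on the minus strand of chromosome 17, at 34999549 to 35035397 and 34993319 to 34999463. They shared a single peak, chr17:35036410-35036438, which lay 1.0 kb upstream of C2 and 37.0 kb upstream of Cfb in coding sequence of Ehmt2. It was called in RelB replicate 2 at a log2 fold of 2.23, with 11 reads, an FDR of 0.0901 and a rank of 6655 of 6698. The other C2 transcripts begin farther from the site, 5 of the 8 annotated starts at 17379 to 35067 bp. C4b, which encodes the C4 protein, runs on the same strand from 34865325 to 34880827, and the nearest peak to its start at 6 h lay 102.3 kb away. C4b has a close copy, C4a, where reads common to both are likewise left out by unique alignment, and the part of this in the missing peaks was not tested.

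C3, on which all routes of the cascade converge, had the most sites of the 8 genes. It spans 57343397 to 57367559 of chromosome 17, on the minus strand, and had 12 peaks at 6 sites, 3 and 4 of them for RelA and 2 and 3 for RelB. Of all protein-coding genes, 1.47% had at least 6 sites within 50 kb. Within 10 kb of the gene start there were 5 C3 sites, against 1 site for the other 7 genes together, the peak shared by C2 and Cfb. By transcript starts the other genes had 2, with the site beside the short C1s transcripts.

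The site 3.6 kb upstream of C3, chr17:57370709-57371679, was intergenic and was called in all 4 libraries. Its peaks held 79 and 58 ChIP reads for RelA and 73 and 86 for RelB. The 95% Poisson intervals of the lowest and the highest, 44 to 75 and 68.8 to 106, overlap, and the reads are not scaled to depth. The log2 fold of the strongest window was 4.09 in 3 libraries and 4.0 in RelB replicate 2. In all 4 libraries that window held no input reads, so the fold is set by the ChIP reads in the window alone, as a ratio of 17 in 3 libraries and 16 in the fourth. Over all reads of the peak, which include 13 to 19 input reads, the log2 fold was 3.29, 2.84, 3.39 and 3.0, in the order of RelA replicates 1 and 2 and RelB replicates 1 and 2. By the mean of its 4 log2 folds, 4.07, it was exceeded by 176 of the 1860 sites of the genome with a peak in all 4 libraries (9.46%).

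The other C3 sites were called in 1 to 3 libraries, at lower folds of the strongest window. By all reads of the peak, the intron site in RelA replicate 2, at 3.09, was above the upstream site, at 2.84. The site in an intron 3.0 kb into the gene, chr17:57364530-57364648, held 17 reads in RelA replicate 2 and 30 and 27 in the RelB libraries, and RelA replicate 1 had no peak. The RelB library with the higher fold there, 3.72 in replicate 2, ranked it 529 of 6698, and the other, at 3.18, ranked it 2018 of 5192. The site over the start itself, chr17:57367236-57367892, held 50 and 44 reads for RelA at log2 folds of 2.83 and 2.67, with no RelB peak. Its reads were second in number to those of the upstream site while its folds were lower, with 19 and 16 input reads under the same peaks. The 3 remaining sites were each called in a single library, at 2.57 with 11 reads 0.7 kb upstream (RelA replicate 1), 2.92 with 15 reads in an intron 8.7 kb downstream (RelA replicate 2), and 2.98 with 26 reads 22.1 kb upstream in an intron of Trip10 (RelB replicate 2).

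**Figure D2:**
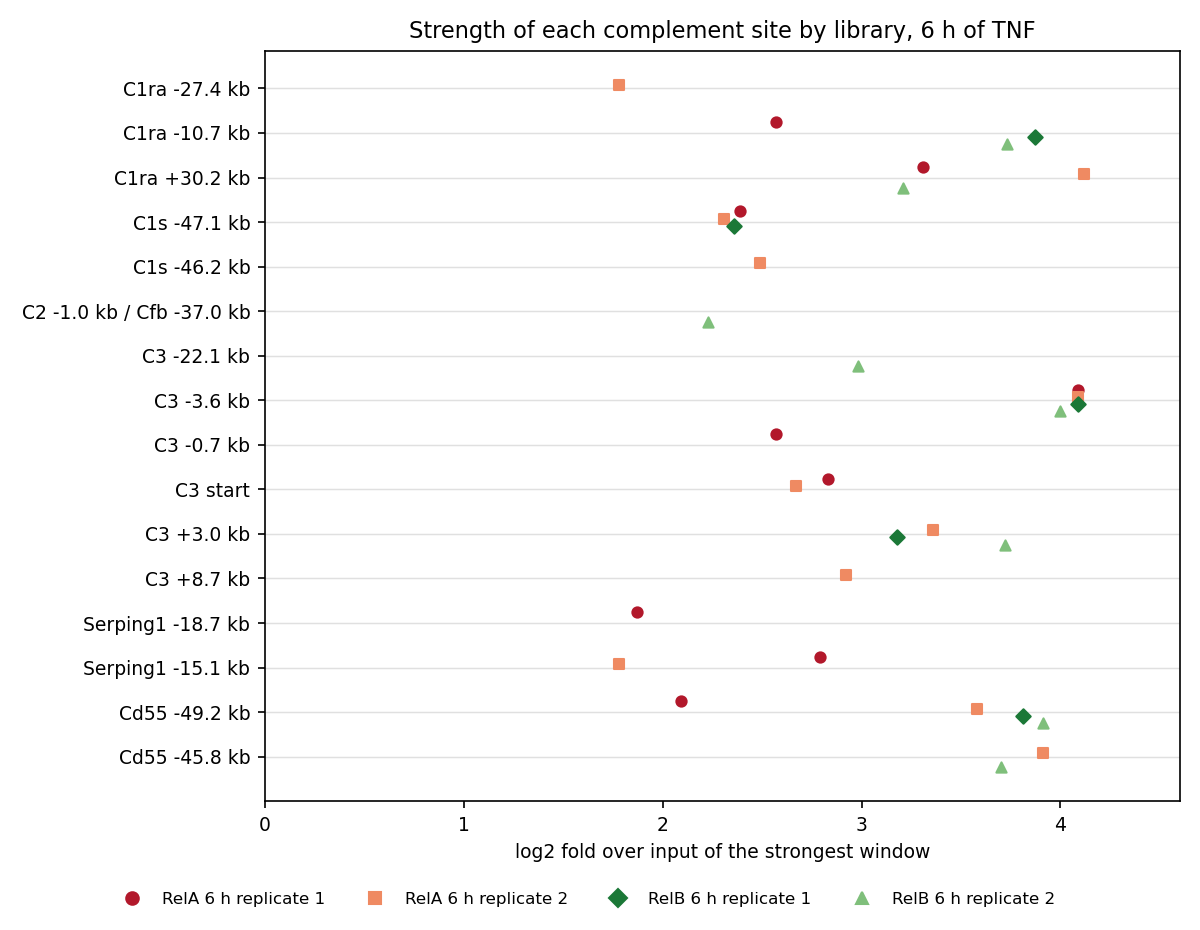
The strongest window's log2 fold over input is plotted for each complement site and 6 h library, with sites named by gene and distance from its start, and no symbol where no peak was called. The C3 site at -3.6 kb sits at 4.0 to 4.09 in all 4 libraries, while the Cd55 site at -49.2 kb runs from 2.09 to 3.91.

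Serping1, which encodes the C1 inhibitor, spans 84605544 to 84615601 of chromosome 2, on the minus strand, and had 3 peaks at 2 intergenic sites, all for RelA. The site 15.1 kb upstream, chr2:84630700-84630749, was called at 2.79 and 1.78 in replicates 1 and 2 with 17 and 12 reads. The peaks were 29 bp long, and the second, with an FDR of 0.0766, ranked 5477 of 5688. The site 18.7 kb upstream was called in RelA replicate 1 at 1.87 with 13 reads. Both lay nearer to the start of Ube2l6, at 8260 and 4652 bp, than to that of Serping1.

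Cd55, which encodes a membrane inhibitor of the enzymes that cleave C3, spans 132335604 to 132359321 of chromosome 1, on the minus strand. It had 6 peaks at 2 sites, both in an intron of the non-coding gene Gm16083. The site 49.2 kb upstream, chr1:132408346-132408645, was called in all 4 libraries, the other complement site of that kind, with 19 and 15 reads for RelA and 15 and 23 for RelB. Its log2 folds were 2.09 and 3.58 for RelA and 3.81 and 3.91 for RelB, so RelA replicate 1 was lowest. In the 3 higher libraries the strongest window held no input reads, and over all reads of the peak the folds were 1.97, 1.88, 2.15 and 1.96, close to each other. The site 45.8 kb upstream, chr1:132404859-132405301, was called at 3.91 in RelA replicate 2 with 25 reads and at 3.70 in RelB replicate 2 with 14 reads. The 49.2 kb site lies just inside the 50 kb limit, and the nearest peak outside it was 56.5 kb from the start, at 2.01 with 12 reads.

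**Figure D3:**
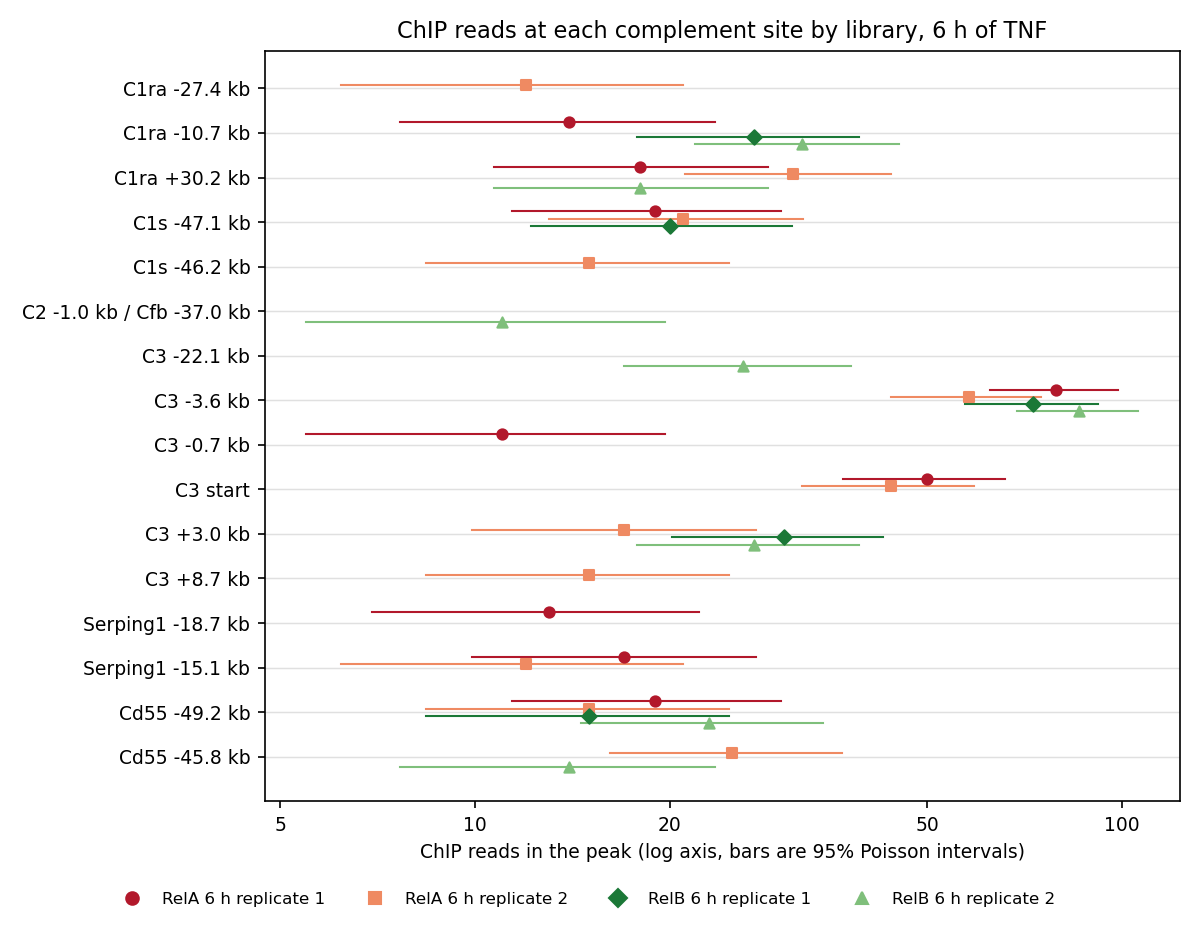
ChIP reads in the peak are plotted on a log axis for each complement site and 6 h library, with 95% Poisson intervals that cover counting error only. The C3 sites at -3.6 kb and at the start hold 44 to 86 reads, and every other complement peak holds 32 or fewer.

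RelA and RelB were compared to ask whether they were found at the same complement sites and with the same strength. RelA peaks lay at 14 of the 16 sites and RelB peaks at 9, with both at 7, RelA peaks without RelB at 7 and RelB peaks without RelA at 2. The lists give calls and not signal below the threshold, so a site with peaks for a single antibody was not tested for a difference. Reproducible sites, at which the peaks of both libraries of an antibody overlap by at least 1 bp, were found for RelA at 5 of the 8 genes (C3, C1ra, C1s, Serping1 and Cd55), against 13.3% of all protein-coding genes. For RelB they were found at C3 alone among the 8, against 14% of all genes. The genes with reproducible sites for both antibodies were 9.1% of all genes and again C3 alone among the 8, while a site called in all 4 libraries was found at C3 and Cd55, against 9.8% of all genes.

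These counts moved with the rule for a shared peak. For RelA the count was 3 of 8 at an FDR under 0.01 or with an overlap of at least 50% of the shorter peak, and 1 of 8 within 10 kb of the start. For RelB it was 3 of 8 (C3, C1ra and Cd55) when centres within 500 bp counted as shared. At the Cd55 site 49.2 kb upstream, the RelB peaks lay side by side without overlap, at 132408421 to 132408450 and 132408388 to 132408417.

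At the 2 sites called in all 4 libraries, strength was tested with limma over all 1860 such sites, each library centred on its median log2 fold. For the C3 upstream site, RelA minus RelB was 0.13 ± 0.26 (SE, 95% interval -0.46 to 0.71, limma with Benjamini-Hochberg adjustment, adjusted p = 0.844). For the Cd55 site it was -0.94 ± 0.42 (SE, 95% interval -1.86 to -0.01, without adjustment, limma adjusted p = 0.296). Neither passed the threshold of an adjusted p of 0.05, which 11 sites (0.591%) did, while 313 sites had an unadjusted p under 0.05. The Cd55 difference rested on RelA replicate 1, without which it was -0.13, and it was -0.02 when all reads of the peak were used.

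C3 was then set against the other complement genes within each 6 h library. The paper had already shown C3 as bound by RelA and RelB in these same data. The comparison is therefore a description, and its p-value is no independent support. C3 also had the most sites from which to take a strongest peak. The strongest C3 peak had log2 folds of 4.09, 4.09, 4.09 and 4.0 in RelA replicates 1 and 2 and RelB replicates 1 and 2. The median of the strongest peaks of the other genes with a peak in the same library was 2.59, 3.20, 3.81 and 3.73. C3 was thus higher by 1.5, 0.89, 0.28 and 0.27, in 4 of 4 libraries (mean 0.73 ± 0.59 SD, p = 0.13 by an exact two-sided sign-flip permutation test, as low as 4 libraries allow). The mean was 0.48 without RelA replicate 1 and 0.40 when the nearest start of any transcript was used, which gives C1s the site beside its short transcripts. With the mean over a gene's peaks in place of its strongest peak, the mean difference was 0.33. In RelA replicate 2 the C1ra peak 30.2 kb downstream, at 4.12, exceeded the strongest C3 peak. In the other 3 libraries C3 was the highest of the 8 genes. By all reads of the peak, C3 was at 3.29, 3.09, 3.39 and 3.0, the median of the other genes lay 1.4, 0.79, 1.24 and 0.17 below it, and the strongest other gene at 2.41, 3.08, 2.96 and 3.30, so that in RelB replicate 2 another gene was higher than C3.

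**Figure D4:**
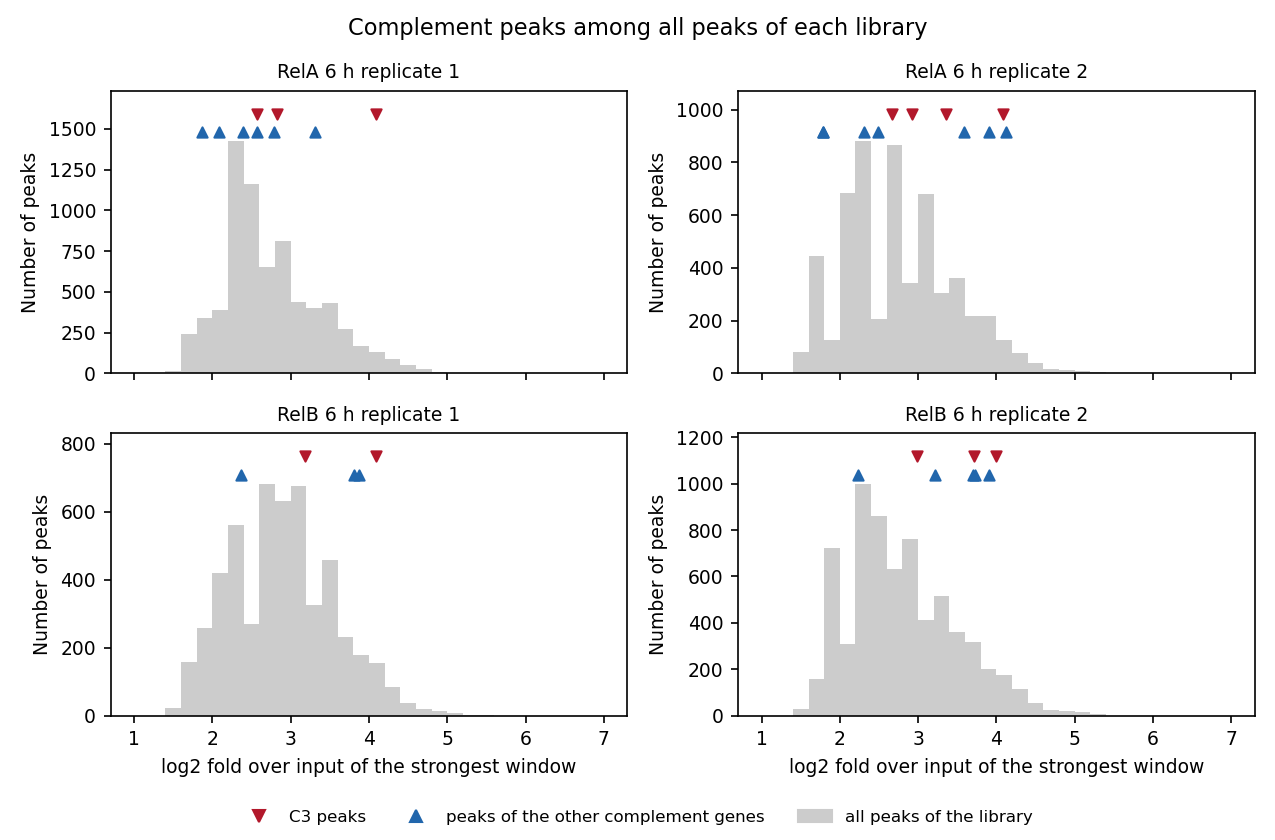
Grey bars count all peaks of a 6 h library by the strongest window's log2 fold over input, with a panel for each library and symbols above the bars for C3 peaks and for peaks of the other complement genes. The strongest C3 peak lies at 4.0 to 4.09 in each panel, and peaks of the other genes spread from 1.78 to 4.12.

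As a group, the 33 complement peaks had a median log2 fold of 3.18, beside 2.68 for all peaks at 6 h. C3 alone gave 12 of the 33, the other genes together 21, and a site called in several libraries counts once for each. The median is thus weighted towards C3 and does not describe the other genes. The strongest window held no input reads in 9 of the 33 peaks, 4 at C3 and 5 at Cd55 (27.3%, against 9.38% of all peaks at 6 h). In such a window the fold has a denominator of 1. Of the 16 sites, 7 were called in 1 library, 3 in 2, 4 in 3 and 2 in all 4, which is 43.8%, 18.8%, 25% and 12.5%. Over all 14781 sites at 6 h the shares were 67.9%, 11.3%, 8.16% and 12.6%. For 9 of the 16 sites the nearest start of a protein-coding gene was not that of a gene examined here, and for C3 that held for 1 of its 6 sites.

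The NF-κB consensus was looked for on either strand, up to 100 bp from each site's centre. It was found at 10 of the 16 complement sites, beside 44.3% of all sites. Among all sites the share was 33.7% for those called in 1 library, 58.9% in 2, 66.8% in 3 and 73.9% in 4, and among complement sites it was found at 2 of 7, 3 of 3, 3 of 4 and 2 of 2. The site called in 3 libraries without a match was the one 30.2 kb from C1ra, next to the short C1s transcripts. It had no match in its whole merged length. Its peak in RelA replicate 2 had the highest strongest-window log2 fold of the complement peaks, 4.12, and 3.08 over all reads of the peak. The C1ra upstream site held matches at 124451601 to 124451610, between the separate RelB peaks, and at 124451647 to 124451656, inside the peak of RelB replicate 2. At the C3 start the match shown above lay 28 bp upstream of the annotated start. A match describes letters and not binding.

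Sites outside the complement genes whose 4 log2 folds were most like those of the C3 upstream site were looked for by Euclidean distance among 1858 sites. The nearest protein-coding starts to the 3 closest were those of Asb5, 9430020K01Rik and Agpat9, at distances of 0.17, 0.18 and 0.182, and each start lay over 100 kb from its site. The site near Asb5 had log2 folds of 4.09, 4.09 and 4.09 and, in RelB replicate 2, 4.17.

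Of 40 further genes of the pathway 39 were annotated, and 18 of those (46.2%) had a peak within 50 kb at 6 h, close to the 43.5% of all protein-coding genes. Of the 18, 9 had a peak in a single library, and C1rb and C1rl shared their sites with C1ra. All 3 genes of C1q, the recognition protein of the classical route, had none, nor did Hc, which encodes C5. Sites in all 4 libraries lay near C8g, C5ar1 and Itgb2. C5ar1, the receptor for the C5a fragment, had its site 49.8 kb upstream at log2 folds of 3.07, 3.61, 3.35 and 3.30 in the library order used above. Itgb2, the β chain of complement receptor 3, had its site 40.1 kb downstream of its start at 3.86, 3.36, 3.87 and 3.98. C8g, a subunit of the membrane attack complex, had the highest folds of the pathway, 5.02, 4.57, 5.41 and 5.42, at a site 32.7 kb upstream. The gene start nearest to that site was not looked up, and C8g is named by the 50 kb rule alone. Within 50 kb of the C8g start, a peak was also called at 0 h in both RelB libraries, at 3.62 and 3.71 with 36 and 29 reads. Whether these peaks overlapped the 6 h site was not checked. No other gene of the pathway had a peak at 0 h.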

How the data were processed

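The authors removed adapters with cutadapt, aligned single-end reads to mm9 with Bowtie keeping unique alignments, and called peaks per library with cisGenome v2.0 (200-base windows, at least 4 reads, FDR under 0.1, fold above 2) against Nfkb2-/- input. The deposited count columns hold unscaled ChIP and input reads in each peak and its fullest window. The deposited FDR of each peak is a q-value. The log2 fold that the authors deposited is that of the strongest window, with 1 added to the ChIP reads and to the scaled input reads. Total depth is unknown, and a list shows no signal below its threshold.

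Peak centres were compared with gene starts of the GENCODE annotation of NCBIM37 (mm9). Peaks of the 6 h libraries were merged into sites where they shared 1 bp or more. The fold of all reads of a peak was recomputed with the input scaling recovered from the lists. Tests were exact permutation tests over libraries and limma over all sites called in all 4 libraries, both set out in the text, with edgeR as an alternative on reads of the fullest window. The members and lists were chosen with earlier results of these data known, and the genes named were all members, listed pathway genes with a peak, and the 3 sites most like the strongest C3 site. The steps were tested on simulated data. In 1860 simulated sites with 200 changed, limma recovered 100% of the log2 changes of 2 and 50% of those of 1. Of the unchanged sites, 4 were called. The simulated noise was normal with the same spread at every site, unlike the real folds. These shares therefore check the steps and do not give the power of the real comparison. Alternatives covered thresholds, distances, overlap, normalization, the measure of strength and leaving out replicates. Poisson intervals cover counting error only. Computation used samtools 1.23.1, Python 3.11.15 (pysam 0.24.0, pandas 2.3.3, numpy 2.4.6, matplotlib 3.10.9, scipy 1.17.1) and R 4.3.3 with limma 3.58.1, edgeR 4.0.16 and DESeq2 1.42.0 (size factors).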

Additional observations from a re-analysis of the deposited data

Results flagged for a closer look

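At the C3 site 3.6 kb upstream of the gene, the log2 fold of RelB replicate 2 at 6 h, 4.0, stood apart from the other 3 libraries, which were all at 4.09, so that its gap to the nearest of them made up the whole range of the 4 values. Among values that vary smoothly, a gap large enough to be flagged comes up by chance in about 1 of 20 groups. The values here are logs of whole-number ratios with ties, so that rate need not hold for them. The step from 4.09 to 4.0 is that from a ratio of 17 to a ratio of 16 in windows without input reads. The reads of the same peak, 86 in that library and 58 to 79 in the others, did not stand apart by the same measure.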

How the results depend on the processing

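The difference in the number of complement peaks between 6 h and 0 h, which goes with the length of the lists and tests nothing particular to these genes, was 3.17 (exact permutation p = 0.0286), 2.79 at an FDR under 0.01, 1.98 within 10 kb and 3.30 within 100 kb, with the same exact p of 0.0286 in each. That p is the smallest that 4 libraries against 4 allow. It was fixed once every 6 h library and no 0 h library held a complement peak. With a library left out the difference was 3.03 to 3.36, and p was 0.0571, the smallest that 3 libraries against 4 allow. With the replicate block, labels swapped within libraries of the same antibody and number, it was 3.17 with an exact permutation p of 0.13, the smallest that 4 pairs allow. The labels give no shared origin for equal numbers. The deviations of equally numbered libraries were not correlated (r = -0.00256 over 1860 sites). Only sites called in all 4 libraries entered, so this cannot settle whether equal numbers share a culture. Reproducible RelA sites were found at 3 complement genes at an FDR under 0.01, at 1 within 10 kb and at 3 with an overlap of 50% of the shorter peak, beside 5 in the text. Reproducible RelB sites were found at 3 genes with centres within 500 bp, at 6 with a peak in either library, and at 4 to 5 with a RelB library left out, beside 1. Consensus matches lay at 4 of the 6 sites within 10 kb. On average over libraries, C3 stayed above the median of the other genes under the 11 alternatives that compare with it, at 0.33 to 1.77. The lowest, 0.33, came with the mean over a gene's peaks (exact sign-flip permutation p = 0.375). At that p, C3 was not above the median in all 4 libraries. Against the strongest other gene, C3 was higher by 0.26 on average, and by 0.25 with all reads of the peak. The use of all reads was chosen after seeing the data. The single value of 1.77, within 10 kb, came from 1 library.

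For RelA against RelB, limma called 11 of 1860 sites, and 85 with the replicate block, 43 by edgeR with TMM, 44 by edgeR with DESeq2 size factors, 30 at an FDR under 0.01, 0 with centres within 500 bp (327 at an unadjusted p under 0.05), and 0 to 31 with a library left out, 0 without RelA replicate 1 or RelB replicate 2. No setting called the C3 or the Cd55 site, and their signs turned by edgeR, to -0.33 and 0.09. The Cd55 site could not be tested at an FDR under 0.01 or without RelA replicate 2, where it was no longer a site of all libraries. Read numbers of 11 to 86 per complement peak limit what these comparisons can show.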
